A study of Mus musculus with 16 samples.

Results

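Kallikreins are secreted serine proteases, and SPINK proteins and serpins are families that hold many of the inhibitors of such proteases. The genes described here are all rows of the gene count table whose symbol opens with *Klk*, *Spink*, *Serpina* or *Serpinb* and a number, which are 107 of the 55487 genes counted. They comprise 37 kallikreins (11 of them with pseudogene symbols), 12 SPINK genes, 29 SERPINA genes (4 pseudogene symbols) and 29 SERPINB genes (1 pseudogene symbol). RNA was sequenced from urogenital sinus (UGS) epithelium, the layer of the fetal tube from which prostate buds grow, isolated from male C57BL/6J mouse fetuses on E16.75. The 4 TCDD pools came from fetuses of dams given 2,3,7,8 tetrachlorodibenzo-*p*-dioxin by mouth on E13.5, and the 4 vehicle pools from fetuses of dams given corn oil (5 ml/kg) on the same day. The day is that of the sample labels, and the text of the study also names a later day of dosing. The dose was 5 µg/kg according to the sample protocol and 1 µg/kg according to the series description. Each pool combined 5 or 6 epithelia, and the number of litters behind a pool is not given in the sources used here. Replicates are thus pools of fetuses. Mesenchyme had been removed with trypsin, collagenase and dissection, and bladder and distal urethra had been cut away.

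Tissue kallikreins are trypsin- or chymotrypsin-like enzymes that are secreted as inactive precursors and switched on by cleavage, often by one another. In stratified epithelia they cut the junctions that hold cells together, and in the human prostate they are abundant secretory products. SPINK proteins carry Kazal domains that block serine proteases, and LEKTI, the product of *SPINK5*, is the main brake on skin kallikreins in humans. Serpins trap their protease by changing shape. The SERPINA proteins are mostly secreted, and the SERPINB proteins mostly remain inside the cell, where they protect it from stray proteases.

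With its lanes added, a TCDD pool held 22254896 to 26740656 counts and a vehicle pool 25917911 to 28146766. TCDD replicate 1 had been set aside as an outlier by the study, and each comparison rests on TCDD replicates 2 to 4 and vehicle replicates 1 to 4 (7 pools). Where the test of a member is described, the value of TCDD replicate 1 or of all 8 pools follows. In counts per gene this pool differed from the other TCDD pools by a chi-square of 35.0 to 54.1 per gene, while those pools differed among themselves by 14.5 to 22.2. All 14 markers of UGS epithelium were expressed well enough to be tested. Of these, 3 were higher and 2 lower in the TCDD pools (4 and 1 over all 8 pools). Of the tested targets of the aryl hydrocarbon receptor (AHR), the receptor of TCDD, 6 of 6 were higher in the TCDD pools, over 7 and over 8 pools. *Cyp1a1* and *Ahrr* among them reached the expression needed for testing through the TCDD pools, so this count leans toward higher values. Markers of mesenchyme and smooth muscle summed to 79.4 to 83.8 CPM (counts scaled to a common library size with the TMM factors of edgeR) in TCDD replicates 2 to 4, 159.7 CPM in TCDD replicate 1 and 138.8 to 198.4 CPM in the vehicle pools. Of the 12 listed, all had counts, and 7 of 10 tested were lower (2 of 10 over all 8 pools). *Acta2* and *Pdgfrb* among the 7, and *Tagln*, which was not called, reached the expression needed for testing through the vehicle pools, so this count leans toward lower values. Of all tested genes 11.2% were lower (6.0% over 8 pools). Markers of urothelium, the lining of bladder and urethra, summed to 3363 to 4153.8 CPM in TCDD replicates 2 to 4, 2114.7 CPM in TCDD replicate 1 and 1409.7 to 1796.2 CPM in the vehicle pools. Of these, 7 of 7 were higher over 7 and over 8 pools, against 11.9% and 7.41% of all tested genes.

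Most of these genes had few or no counts in this tissue. No count fell on 52 of the 107 genes in any pool. With at least 3 counts over the pools of a group taken as detection, 41 genes were detected, 34 of them in TCDD replicates 2 to 4 and 35 in the vehicle pools. By family these were 14 kallikreins, 6 SPINK genes, 7 SERPINA genes and 14 SERPINB genes. Only 18 genes had enough counts to be tested over 7 pools (16 over 8 pools), namely 6 kallikreins, 2 SPINK genes, 3 SERPINA genes and 7 SERPINB genes, and 89 were not tested. All 6 tested kallikreins lay in the stretch of the chromosome 7 cluster between *Klk14* and *Klk4*. Of the *Klk1b* subfamily, which lies beyond it, is expanded in mice and is abundant in the adult mouse submandibular gland, *Klk1b11* alone reached 10 counts, with 7 counts in the 4 TCDD pools and 6 in the vehicle pools.

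Among the genes with 10 or more counts that could not be tested, *Klk1* (tissue kallikrein itself) had 9 counts in the 4 TCDD pools and 2 in the vehicle pools, *Klk9* had 1 and 10, and *Klk15* had 4 and 8. *Serpinb6c* had 56 counts in the 4 TCDD pools and 45 in the vehicle pools, *Serpinb10* had 46 and 35, *Serpinb12* had 21 and 39, and *Serpinb1b* had 6 and 9. *Serpinb10* shares bases with *Serpinb2* on the same strand, so its counts are uncertain. *Spink10* had 24 counts in the 4 TCDD pools and 19 in the vehicle pools, *Spink2* had 6 and 4, and *Serpina3g* had 21 and 18. *Klk5* and *Klk7*, the kallikreins best known from human skin, stood lower still and are named here after their values were seen. *Klk5* had 3 counts, all in vehicle replicate 4, and *Klk7* had 1 count in the TCDD pools and 4 in vehicle replicate 1. These genes were not tested with the others over 7 pools, so their counts show neither a difference nor its absence. With the expression filter left off, 4 of 16 SERPINB genes were called higher (3 of 7 with it), against 1633 of all 25469 genes. The other families then had 5 kallikreins, 1 SPINK gene and 0 SERPINA genes called, all lower.

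Of the 6 kallikreins with enough counts to be tested, 5 were lower after TCDD. *Klk13*, the most abundant, fell 4.32-fold, and *Klk4*, *Klk8*, *Klk10* and *Klk14* fell by 1.89- to 7.34-fold. The sixth tested kallikrein, *Klk11*, had a log2 fold change of −0.82 (SE 0.394) that did not pass the test. A gene is said to rise or fall if its p from the quasi-likelihood test of edgeR was no more than 0.05 after Benjamini-Hochberg adjustment over the 14233 genes tested, which held for 3276 genes (23.0%). Thus 5 of 6 tested kallikreins fell, against 11.2% of all tested genes that fell. The median log2 fold change of the 6 was −2.21, and that of all tested genes was −0.0024. *Klk4*, *Klk11* and *Klk14* reached the expression needed for testing through the vehicle pools, with at most 1 TCDD pool at the required level, so the count and the median over the tested kallikreins lean toward lower values. *Klk8*, *Klk10* and *Klk13* reached it in all 7 pools.

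*Klk13* (ENSMUSG00000054046, chr7:43712567-43727534, plus strand) encodes a secreted trypsin-like enzyme. It stood at 14.2, 12.0 and 7.64 CPM in TCDD replicates 2 to 4, at 26.2 CPM in TCDD replicate 1, and at 49.5, 51.6, 46.0 and 46.7 CPM in vehicle replicates 1 to 4. Every TCDD pool lay below every vehicle pool, and TCDD replicate 1 lay between the other TCDD pools and the vehicle pools. The log2 fold change was −2.11 (SE 0.156, adjusted p = 2.81e-06), and over all 8 pools it was −1.70 (SE 0.309, adjusted p = 0.00945).

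*Klk8* (ENSMUSG00000064023, chr7:43797577-43803826, plus strand) encodes neuropsin, a trypsin-like protease first studied in mouse brain and also made by keratinocytes. It was measured at 9.31, 9.03 and 6.05 CPM in TCDD replicates 2 to 4, 13.8 CPM in TCDD replicate 1, and 20.2, 11.1, 15.4 and 14.3 CPM in the vehicle pools. The groups were separated over 7 pools (log2 fold change −0.92, SE 0.208, adjusted p = 0.00756). TCDD replicate 1 overlapped the vehicle pools, and over all 8 pools the call was lost (adjusted p = 0.0962, log2 fold change −0.68).

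*Klk10* (ENSMUSG00000030693, chr7:43781035-43785410, plus strand) encodes a kallikrein whose human counterpart is known for its loss in breast tumours. Its level was 2.13, 1.25 and 1.21 CPM in TCDD replicates 2 to 4 and 2.34 CPM in TCDD replicate 1, against 5.79, 10.3, 9.13 and 5.36 CPM in the vehicle pools. Here TCDD replicate 1 lay close to the other TCDD pools, and all 4 were below all vehicle pools. The log2 fold change was −2.32 (SE 0.305, adjusted p = 1.43e-04) over 7 pools and −2.14 (adjusted p = 8.68e-04) over 8.

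*Klk14* (ENSMUSG00000044737, chr7:43690418-43695536, plus strand) encodes a trypsin-like protease of shedding human skin. It was at 0.361, 0.40 and 0.34 CPM in TCDD replicates 2 to 4, 0.84 CPM in TCDD replicate 1, and 1.71, 1.76, 2.48 and 2.03 CPM in the vehicle pools, again with no overlap. The log2 fold change was −2.41 (SE 0.326, adjusted p = 9.95e-05) over 7 pools and −2.03 (adjusted p = 0.00171) over 8. *Klk4* (ENSMUSG00000006948, chr7:43881160-43885804, plus strand), the protease that clears enamel matrix from growing teeth, was the least abundant of those that fell. It had 7, 3 and 1 counts in TCDD replicates 2 to 4, 5 counts in TCDD replicate 1, and 33, 33, 42 and 19 counts in the vehicle pools. Its log2 fold change was −2.88 (SE 0.541, adjusted p = 0.00122). Over 8 pools, where more pools must reach the expression needed for testing, *Klk4* was not tested. *Klk11*, which encodes a trypsin-like kallikrein also found in human prostate, was at 0.567 to 1.47 CPM in TCDD replicates 2 to 4 and 1.01 to 2.32 CPM in the vehicle pools, which overlapped (adjusted p = 0.155, and 0.125 over 8 pools).

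**Figure D1:**
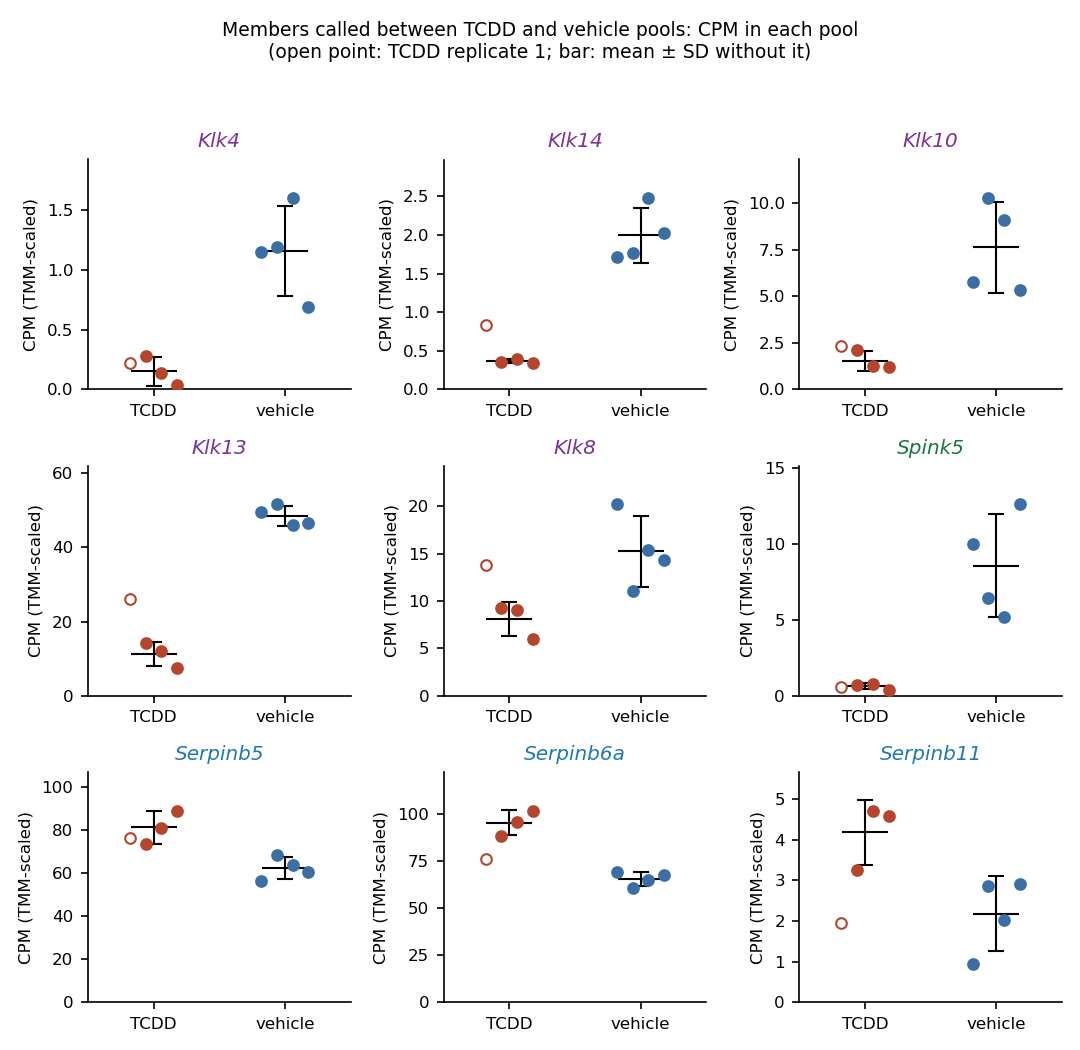
CPM of the 9 members that passed the test over 7 pools, with TCDD pools left of vehicle pools in each panel, each point a pool, the open point TCDD replicate 1, and bars the mean ± SD of TCDD replicates 2 to 4 (n = 3) and of the vehicle pools (n = 4). TCDD points lie below all vehicle points for *Klk4*, *Klk10*, *Klk13*, *Klk14* and *Spink5* with or without TCDD replicate 1, and above them for *Serpinb5* and *Serpinb6a*.

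A change of more than 1.5-fold was tested with TREAT, edgeR's test against a minimum fold. *Klk4*, *Klk10*, *Klk13* and *Klk14* passed it over 7 pools (adjusted p = 0.00851, 0.00129, 2.39e-05 and 9.63e-04), which is 4 of 6 tested kallikreins against 1.44% of all tested genes that passed it as lower. *Klk4* and *Klk14* were tested only because of their level in the vehicle pools, so nothing is read from this share. *Klk8* did not (adjusted p = 0.317). Over all 8 pools the quasi-likelihood test called 3 of 5 tested kallikreins lower, against 6.0% of all genes. TREAT over 8 pools called *Klk10* and *Klk14* (adjusted p = 0.00761 and 0.0169) but not *Klk13* (adjusted p = 0.0825), against 0.448% of all genes. *Klk14* is in both counts, so nothing is read from these shares either. The markers of mesenchyme were lower, and those of urothelium higher, in the same TCDD pools, and TCDD replicate 1 lay near the vehicle pools in its mesenchymal markers and between the groups for *Klk13*. The part of either cell type in the kallikrein values was not tested. In pooled tissue, fewer cells of a type and less RNA per cell cannot be told apart.

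The 37 kallikrein genes lie in a cluster on chromosome 7 (chr7:43690418-44229618, GRCm38). Of 20 other genes tested within 500 kb of the cluster, 2 passed the test and both were higher, *Etfb* (log2 fold change 0.32, adjusted p = 0.0154), a mitochondrial electron carrier subunit, and *Vsig10l* (log2 fold change 0.60, adjusted p = 0.0287). Of all tested genes 23.0% passed and 11.9% were higher, so nothing is read from this count. The median log2 fold change of the 20 was −0.0064.

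The promoters of the kallikreins that fell, apart from *Klk8*, are shown with that of *Serpinb6a*. *Serpinb6a* was the only tested member with a window and a match to the DNA core bound by AHR. Each promoter shown is a RefSeq window (GRCm38.p6) of 250 bases before and 50 bases after a start site, printed 5′ to 3′ on the gene's strand. Capitals mark AGAACA or its reverse complement TGTTCT, a half-site of the androgen receptor, which drives prostate budding, and GCGTG or its reverse complement CACGC, the AHR core. The windows are chr7:43780804-43781103 for *Klk10*, chr7:43690168-43690467 for *Klk14*, chr7:43880910-43881209 for *Klk4* and chr7:43712317-43712616 for *Klk13*, all on the plus strand, and chr13:34002745-34003044 on the minus strand for *Serpinb6a*.
Klk10: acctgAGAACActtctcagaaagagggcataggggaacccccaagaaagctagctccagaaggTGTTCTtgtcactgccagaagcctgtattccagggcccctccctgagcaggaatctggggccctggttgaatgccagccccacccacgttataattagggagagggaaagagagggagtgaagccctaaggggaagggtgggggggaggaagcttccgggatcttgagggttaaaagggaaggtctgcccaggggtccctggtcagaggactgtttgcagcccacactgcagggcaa
Klk14: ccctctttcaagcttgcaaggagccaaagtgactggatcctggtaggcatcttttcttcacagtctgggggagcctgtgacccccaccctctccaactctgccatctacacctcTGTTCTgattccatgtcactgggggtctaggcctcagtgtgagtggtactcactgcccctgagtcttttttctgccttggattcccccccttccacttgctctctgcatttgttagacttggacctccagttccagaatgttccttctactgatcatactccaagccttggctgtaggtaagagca
Klk4: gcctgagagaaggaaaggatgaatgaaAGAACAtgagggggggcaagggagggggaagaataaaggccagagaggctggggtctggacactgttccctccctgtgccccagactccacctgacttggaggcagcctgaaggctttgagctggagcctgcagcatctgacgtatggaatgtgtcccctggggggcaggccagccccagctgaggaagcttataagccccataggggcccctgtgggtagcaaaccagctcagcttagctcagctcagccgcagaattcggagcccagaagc
Klk13: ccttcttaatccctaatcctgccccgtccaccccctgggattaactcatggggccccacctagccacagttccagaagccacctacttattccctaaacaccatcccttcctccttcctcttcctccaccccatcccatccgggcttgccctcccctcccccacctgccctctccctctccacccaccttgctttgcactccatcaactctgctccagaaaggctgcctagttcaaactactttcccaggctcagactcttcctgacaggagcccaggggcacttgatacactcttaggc
Serpinb6a: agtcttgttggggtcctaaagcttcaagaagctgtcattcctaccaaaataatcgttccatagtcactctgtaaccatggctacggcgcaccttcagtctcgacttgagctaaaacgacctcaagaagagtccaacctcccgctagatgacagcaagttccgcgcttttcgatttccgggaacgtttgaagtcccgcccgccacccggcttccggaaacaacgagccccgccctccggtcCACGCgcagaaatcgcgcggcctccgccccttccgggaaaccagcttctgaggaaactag

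Windows were at hand for 72 of the 107 genes and for 14 of the 18 tested ones. GCGTG or CACGC was in a window of 35.2% of the 27025 genes with one, in 12.5% of the 72 members, and in no window of the 5 kallikreins that fell. In the printed *Serpinb6a* window it began at position −10 relative to the start site. The window of another *Serpinb6a* start site, chr13:33936034-33936333, held no match. AGAACA or TGTTCT was in a window of 21.3% of all genes, 40.3% of the 72 members and 26.9% of 26 kallikreins. It stood in the windows of *Klk10* (positions −245 and −187), *Klk14* (−136) and *Klk4* (−223), but not in those of *Klk8* and *Klk13*. It also stood in a window of *Klk11* (−77), which did not pass the test, but not in that of another *Klk11* start site (chr7:43774367-43774666). Outside the kallikreins it stood in windows of *Serpina3i* (−164 and 12), *Serpina3j* (−12) and *Serpinb8* (9), which did not pass the test either. Of the 14 tested members with a window 7 held it, so nothing is read from its place in the kallikreins that fell. The AP-1 site TGACTCA or TGAGTCA, found in 5.95% of all genes, was in the window of 1 tested member, *Serpinb8*. The TATA box letters TATAAA or TTTATA, found in 15.7% of all genes, were in no window of a tested member. These matches describe letters in these windows and do not show where a factor binds.

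*Spink5* had the largest fold change of all 18 tested members. It encodes LEKTI, a secreted inhibitor with many Kazal-type domains that blocks KLK5, KLK7 and KLK14 in human skin and whose loss causes Netherton syndrome. The gene (ENSMUSG00000055561, chr18:43963235-44022501, plus strand) was at 0.723, 0.80 and 0.416 CPM in TCDD replicates 2 to 4, 0.619 CPM in TCDD replicate 1, and 9.98, 6.47, 5.16 and 12.6 CPM in the vehicle pools. In counts these were 18, 18 and 11 in TCDD replicates 2 to 4, 14 in TCDD replicate 1, and 286, 180, 135 and 348 in the vehicle pools. All 4 TCDD pools stood far below the lowest vehicle pool, and the vehicle pools differed among themselves by more than the TCDD pools did. *Spink5* fell 13.3-fold (log2 fold change −3.73, SE 0.404, adjusted p = 5.66e-05), and over all 8 pools the log2 fold change was −3.73 (SE 0.349, adjusted p = 9.38e-05). It also passed TREAT (adjusted p = 2.63e-04). Unlike *Klk13*, it was as low in TCDD replicate 1 as in the other TCDD pools. *Spink5* too reached the level needed for testing through the vehicle pools, with 1 TCDD pool at that level.

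*Spink8*, which encodes another Kazal-type inhibitor, was the other tested SPINK gene. It was at 2.81, 3.82 and 2.91 CPM in TCDD replicates 2 to 4, 2.03 CPM in TCDD replicate 1, and 3.42, 3.63, 2.33 and 2.35 CPM in the vehicle pools. The groups overlapped (log2 fold change 0.11, SE 0.231, adjusted p = 0.790).

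The SERPINA genes, on chromosome 12 apart from *Serpina7* on chromosome X, were represented by relatives of human SERPINA3 (antichymotrypsin), a group that is expanded in mice. *Serpina3j* was at 8.83, 11.6 and 10.7 CPM in TCDD replicates 2 to 4, 8.84 CPM in TCDD replicate 1, and 10.2, 10.1, 9.89 and 14.2 CPM in the vehicle pools (log2 fold change −0.10, SE 0.155, adjusted p = 0.709). *Serpina3i* was at 1.20, 1.11 and 0.492 CPM in TCDD replicates 2 to 4, 0.84 CPM in TCDD replicate 1, and 0.593, 1.26, 1.15 and 1.77 CPM in the vehicle pools (log2 fold change −0.36, SE 0.398, adjusted p = 0.566). *Serpina3h*, annotated as a transcribed pseudogene, was at 0.522, 0.667 and 0.605 CPM in TCDD replicates 2 to 4, 0.663 CPM in TCDD replicate 1, and 0.802, 0.97, 0.42 and 0.796 CPM in the vehicle pools (log2 fold change −0.33, SE 0.370, adjusted p = 0.570). All 3 overlapped between the groups. edgeR called 0 of the 3, at an unadjusted p of 0.05 as well, and DESeq2 and limma-voom also called 0. Read pairs that align to several places were dropped by the authors' counting, so levels of these near-identical genes are uncertain.

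Among the SERPINB genes, 3 of 7 tested rose, against 11.9% of all tested genes that rose. *Serpinb5*, *Serpinb6a* and *Serpinb11* rose by 1.30-, 1.45- and 1.91-fold, and the median log2 fold change of the 7 was 0.38. *Serpinb5* (ENSMUSG00000067006, chr1:106861173-106883348, plus strand) encodes maspin, a serpin of epithelial cells that does not inhibit proteases. It was at 73.7, 81.1 and 89.0 CPM in TCDD replicates 2 to 4, 76.4 CPM in TCDD replicate 1, and 56.6, 68.4, 63.8 and 60.5 CPM in the vehicle pools. All 4 TCDD pools were above all vehicle pools (log2 fold change 0.38, SE 0.0868, adjusted p = 0.0055, and over 8 pools 0.36, adjusted p = 0.0125).

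*Serpinb6a* (ENSMUSG00000060147, chr13:33917918-34002794, minus strand) encodes an intracellular inhibitor of trypsin-like proteases and cathepsin G. It was at 88.2, 95.7 and 101.5 CPM in TCDD replicates 2 to 4, 75.8 CPM in TCDD replicate 1, and 69.2, 60.5, 64.8 and 67.5 CPM in the vehicle pools, with no overlap. The log2 fold change was 0.54 (SE 0.0761, adjusted p = 1.68e-04) over 7 pools and 0.46 (adjusted p = 0.00572) over 8. *Serpinb11* (ENSMUSG00000026327, chr1:107361198-107380475, plus strand), whose mouse product inhibits trypsin, was at 3.25, 4.71 and 4.58 CPM in TCDD replicates 2 to 4, 1.95 CPM in TCDD replicate 1, and 0.942, 2.87, 2.02 and 2.90 CPM in the vehicle pools. It rose over 7 pools (log2 fold change 0.93, SE 0.307, adjusted p = 0.0433), by a narrow margin. TCDD replicate 1 lay inside the range of the vehicle pools, and over all 8 pools the call was lost (adjusted p = 0.209, log2 fold change 0.73). It was also lost without vehicle replicate 1 or 3 (adjusted p = 0.060 and 0.109) and without TCDD replicate 3 or 4 (adjusted p = 0.141 and 0.163). Over all 8 pools 2 of 7 SERPINB genes rose, against 7.41% of all genes.

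The other SERPINB genes did not pass the test. *Serpinb6b*, which in mice encodes an inhibitor of granzyme A, was uneven within the TCDD group. It was at 6.30, 1.60 and 7.45 CPM in TCDD replicates 2 to 4, 2.17 CPM in TCDD replicate 1, and 2.58, 1.69, 2.60 and 2.24 CPM in the vehicle pools. TCDD replicates 2 and 4 stood above every vehicle pool, and TCDD replicate 3 below every one (log2 fold change 1.18, SE 0.426, adjusted p = 0.0782). Without TCDD replicate 3 the log2 fold change was 1.58 (adjusted p = 2.7e-04). It also passed with DESeq2 (adjusted p = 0.0112), with edgeR without robust estimation (adjusted p = 0.0425) and in lane 3 alone (adjusted p = 0.0303). *Serpinb1a*, an inhibitor of neutrophil elastase, was at 5.18, 6.27 and 7.83 CPM in TCDD replicates 2 to 4, 2.21 CPM in TCDD replicate 1, and 4.46, 10.5, 6.38 and 7.89 CPM in the vehicle pools (log2 fold change −0.18, adjusted p = 0.669). *Serpinb8*, whose human product inhibits furin, was at 8.06 to 9.43 CPM in TCDD replicates 2 to 4 and 5.46 to 7.67 CPM in the vehicle pools, with TCDD replicate 1 at 6.06 CPM (log2 fold change 0.36, adjusted p = 0.126). *Serpinb9*, an inhibitor of granzyme B, was at 2.42 to 2.69 CPM in TCDD replicates 2 to 4 and 2.37 to 3.04 CPM in the vehicle pools (log2 fold change −0.03, adjusted p = 0.932). In TCDD replicate 1 it was at 1.77 CPM, below every vehicle pool, and over all 8 pools it did not pass (adjusted p = 0.706).

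Counted without a model, 6 of the 18 tested members had every one of TCDD replicates 2 to 4 below every vehicle pool, against 15.3% of all tested genes. They were *Spink5* and the 5 kallikreins that fell. *Spink5*, *Klk4* and *Klk14* among them were tested only because of their level in the vehicle pools, so nothing is read from this share. The opposite held for *Serpinb5*, *Serpinb6a*, *Serpinb8* and *Serpinb11*, against 16.1% of all genes. Over all 8 pools 4 of 16 were below in this sense, against 8.28% of all genes, and 2 of 16 above, against 10.1%. By the quasi-likelihood test in either direction, 9 of 18 members passed over 7 pools, against 23.0% of all genes, and 6 of 16 over 8 pools, against 13.4%. By TREAT these were 5 of 18, against 4.03%, and 3 of 16, against 1.37%, all of them lower. *Spink5* and *Klk14* are in each of these counts of lower or called members, and *Klk4* in those over 7 pools. Nothing is read from these shares either. The SERPINB genes that rose did not pass TREAT, which called 2.59% of all genes higher over 7 pools and 0.925% over 8.

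**Figure D2:**
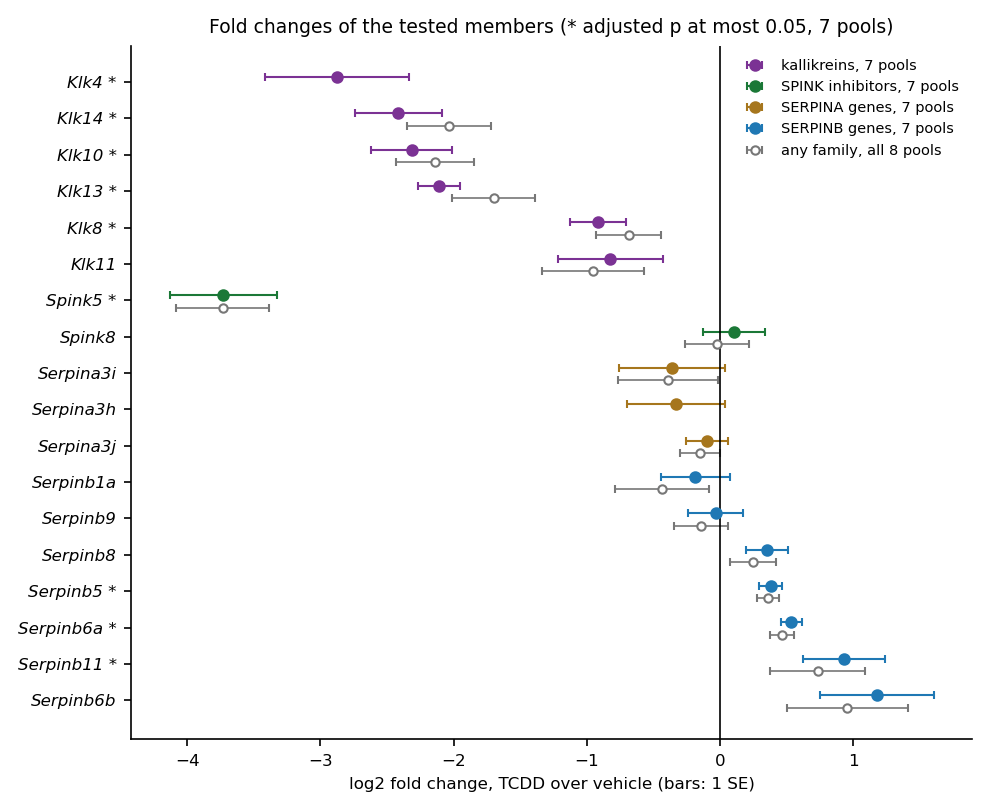
Log2 fold changes of the 18 tested members, TCDD over vehicle, with bars of 1 SE, filled and coloured by family for 7 pools and open grey for all 8 pools. Kallikreins and *Spink5* lie left of 0, down to −3.73 for *Spink5*, SERPINA genes between −0.36 and −0.10, and the 3 SERPINB genes that passed the test between 0.38 and 0.93.

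Levels of different genes were compared as CPM per kb of exon. In the vehicle pools *Serpinb5* (22.7 ± 1.82, SD, n = 4) and *Klk13* (21.1 ± 1.12) led and did not differ beyond their spread. This order holds for the summed length of all annotated exons of a gene. With the longest transcript as the length, *Serpinb6a* led at 43.4 CPM per kb in TCDD replicates 2 to 4 and 29.9 in the vehicle pools, with *Serpinb5* at 30.4 and 23.3 and *Klk13* at 6.23 and 26.8. *Serpinb6a* (12.1 ± 0.704) and *Klk8* (9.91 ± 2.45) came next, again within their spread. *Klk10* (5.57 ± 1.78), whose pools overlapped those of *Klk8*, was followed by *Serpina3j* (5.15 ± 0.96) and *Spink8* (3.57 ± 0.838), which both overlapped it. In TCDD replicates 2 to 4 *Serpinb5* (29.5 ± 2.77, SD, n = 3) and *Serpinb6a* (17.6 ± 1.23) stood apart from the rest. *Klk8* (5.28 ± 1.17), *Klk13* (4.91 ± 1.45), *Serpina3j* (4.82 ± 0.658) and *Spink8* (3.88 ± 0.68) lay within each other's spread. *Klk10* was at 1.11 ± 0.379 CPM per kb and *Spink5* at 0.135 ± 0.0425 CPM per kb in these pools, against 1.79 ± 0.706 CPM per kb for *Spink5* in the vehicle pools. *Klk4* and *Spink5* had the lowest TCDD levels of the 18.

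**Figure D3:**
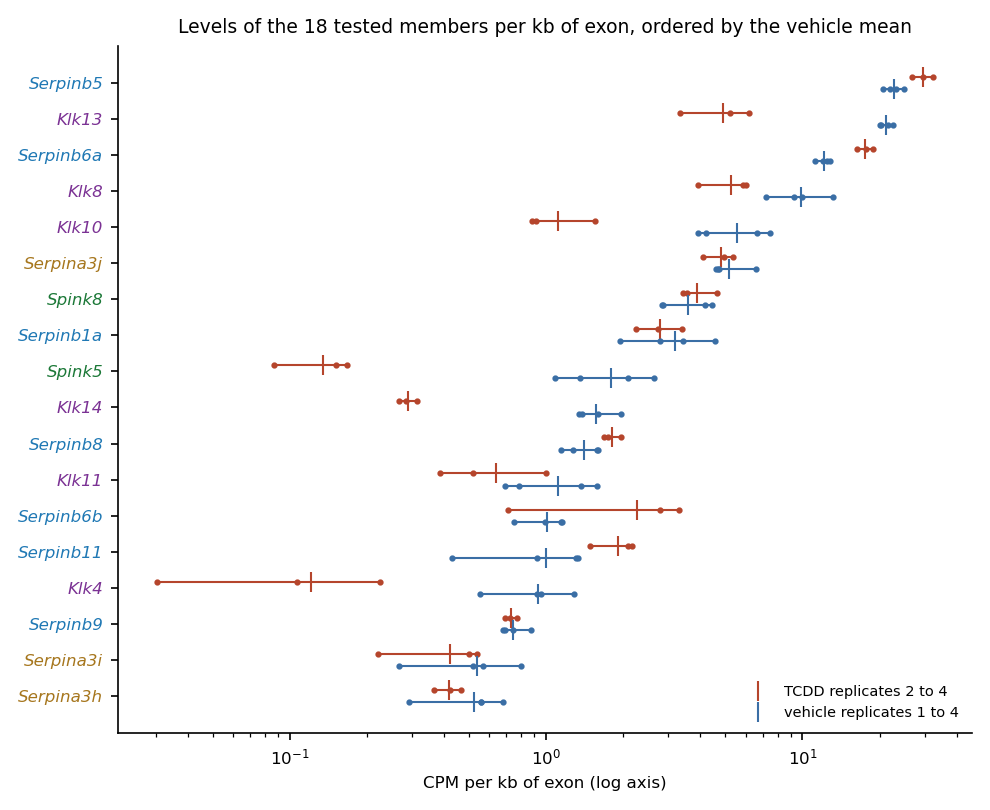
CPM per kb of exon on a log axis for the 18 tested members, ordered by the vehicle mean, with TCDD replicates 2 to 4 above the vehicle pools in each row, points for pools, a line for their range and a tick for their mean. *Serpinb5* and *Klk13* were at 22.7 and 21.1 CPM per kb in the vehicle pools, and with TCDD *Serpinb5* was at 29.5 and *Klk13* at 4.91, lengths being those of all exons (with the longest transcript *Serpinb6a* led in both groups).

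Protease and inhibitor RNA were then summed per family in each pool, as a description with no test. The ratios are of RNA levels and say nothing of protein or enzyme activity. Kallikreins summed to 15.3, 13.7 and 9.21 CPM per kb in TCDD replicates 2 to 4, 23.6 in TCDD replicate 1, and 42.1, 41.1, 41.2 and 37.7 in the vehicle pools. The vehicle pools lay close together, and every TCDD pool was well below them. The means were 12.7 ± 3.16 CPM per kb with TCDD (SD, n = 3) and 40.5 ± 1.94 with vehicle (SD, n = 4), a 3.18-fold difference. *Klk13* made up 38.2% ± 2.15 of this sum in TCDD replicates 2 to 4 and 52.1% ± 2.73 in the vehicle pools.

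SERPINB genes summed to 52.8, 56.4 and 63.1 CPM per kb in TCDD replicates 2 to 4, 47.1 in TCDD replicate 1, and 39.8, 45.2, 42.7 and 43.0 in the vehicle pools, with no overlap and means 1.35-fold apart. SPINK genes summed to 4.33 ± 0.852 CPM per kb in TCDD replicates 2 to 4 and 5.57 ± 0.852 in the vehicle pools, which overlapped, and TCDD replicate 1 was lowest at 2.64. *Spink8* made up 89.8% ± 2.15 of the SPINK sum with TCDD and 64.0% ± 9.65 with vehicle, so the sum followed *Spink8* more than *Spink5*. As plain CPM, in which the longer *Spink5* weighs more, the SPINK sums were 4.28 ± 0.765 with TCDD and 11.8 ± 3.24 with vehicle and did not overlap. SERPINA genes summed to 5.81 ± 0.662 CPM per kb with TCDD and 6.34 ± 1.17 with vehicle and overlapped.

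The ratio of summed kallikreins to all summed inhibitors (SPINK, SERPINA and SERPINB) was 0.248, 0.201 and 0.127 in TCDD replicates 2 to 4, 0.43 in TCDD replicate 1, and 0.814, 0.718, 0.781 and 0.664 in the vehicle pools. Every TCDD pool lay below every vehicle pool. The mean ratio was 0.192 ± 0.061 with TCDD and 0.744 ± 0.0667 with vehicle, 3.88-fold apart. *Serpinb5* held 51.4% ± 0.808 of the SERPINB sum with TCDD and 53.1% ± 1.95 with vehicle by this length, and its product does not inhibit proteases. With *Serpinb5* left out, a choice made after seeing the data, the ratio was 0.339 ± 0.105 with TCDD and 1.28 ± 0.136 with vehicle.

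The ratio turned the other way with *Spink5* alone set against the kallikreins, a choice outside the planned ratios to whole families. Against *Spink5* alone, kallikrein RNA was 101, 81.8 and 106 times as high per kb in TCDD replicates 2 to 4, 182 times in TCDD replicate 1, and 20.2, 30.4, 38.2 and 14.3 times in the vehicle pools. This ratio was higher in every TCDD pool than in every vehicle pool (96.4 ± 12.9 against 25.8 ± 10.6). *Spink5* had the largest fall of the 18 tested members, larger than that of the kallikrein sum, so the ratio had to rise. *Spink5* was tested through its level in the vehicle pools and had 11 to 18 counts in a TCDD pool. Nothing is read from the rise of this ratio. For *Klk8* against *Spink5* the ratios were 40.1 ± 5.10 with TCDD and 6.11 ± 2.41 with vehicle. *Klk8* had the smallest fall of the kallikreins that fell, so the change in its ratio is the largest among them. *Klk14* was at 0.289 CPM per kb in TCDD replicates 2 to 4 and 1.57 in the vehicle pools, beside *Spink5* at 0.135 and 1.79. Against the whole SPINK family the ratio was lower with TCDD, at 2.99 ± 0.886 against 7.42 ± 1.35, but TCDD replicate 1, at 8.92, lay inside the range of the vehicle pools.

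**Figure D4:**
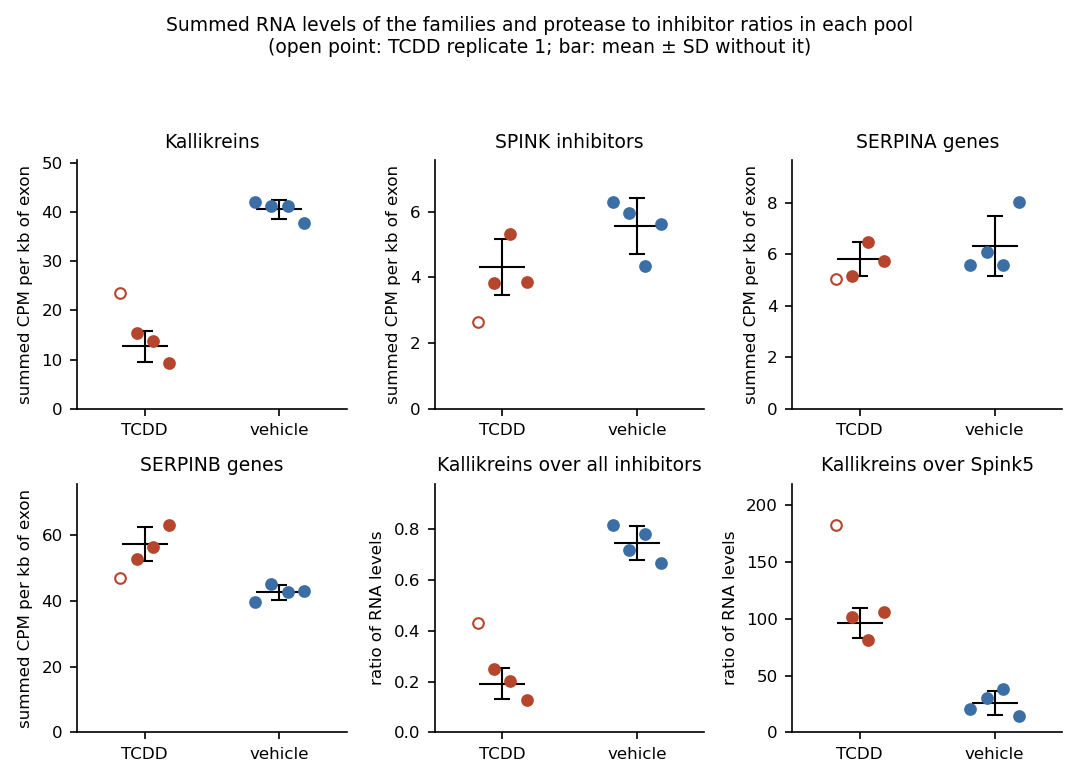
Summed CPM per kb of exon for each family, and ratios of summed kallikreins to all inhibitors and to *Spink5*, with TCDD pools left of vehicle pools, the open point TCDD replicate 1, and bars the mean ± SD of TCDD replicates 2 to 4 (n = 3) and of the vehicle pools (n = 4). Kallikreins over all inhibitors were at 0.127 to 0.43 with TCDD and 0.664 to 0.814 with vehicle, while kallikreins over *Spink5* were at 81.8 to 182 and 14.3 to 38.2.

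Epithelial proteases outside the kallikreins moved mostly the other way. Of 20 listed proteases of epithelia, all serine proteases apart from *Enpep*, which was not tested, 17 could be tested. Of these, 11 rose and 2 fell (8 and 1 of 15 over all 8 pools), with a median log2 fold change of 0.74. *Tmprss11a* and *Tmprss11f* among the 11 reached the expression needed for testing through the TCDD pools, so the count and the median lean toward higher values. *Tmprss2*, a membrane-bound protease regulated by androgens in the prostate, was at 444 CPM in TCDD replicates 2 to 4 and 189 CPM in the vehicle pools (log2 fold change 1.23, adjusted p = 4.37e-07). In TCDD replicate 1 it was at 232 CPM, near the vehicle pools, and over all 8 pools it rose as well (log2 fold change 1.05, adjusted p = 0.0107). *Tmprss11e* (log2 fold change 2.41), *Tmprss11f* (3.87) and *Tmprss13* (0.68), also membrane-bound, rose over 7 pools, and *Tmprss11f* was not tested over 8. Of 12 tested cathepsins and legumain, lysosomal proteases, 4 rose (*Ctsc*, *Ctsd*, *Ctse* and *Ctsh*) and 2 fell (*Ctsl* and *Ctsz*), and over 8 pools 4 rose and 1 fell. For these and the lists that follow, 11.9% of all tested genes rose and 11.2% fell over 7 pools (7.41% and 6.0% over 8).

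Of 15 tested protease inhibitors outside the 3 inhibitor families, 9 rose and 2 fell (8 and 1 over 8 pools), with a median log2 fold change of 0.39. *Spint1*, the Kunitz-type inhibitor of matriptase and hepsin, rose (log2 fold change 0.67, adjusted p = 1.32e-05), as did the cystatin genes *Csta1* (1.79) and *Stfa3* (2.79), and *Timp3*, an inhibitor of matrix metalloproteases, fell (−0.87). Of 6 tested serpins of other clades, 2 passed the test and both fell over 7 pools, *Serpine2* (protease nexin, log2 fold change −0.69, adjusted p = 4.04e-05) and *Serpinh1* (a collagen chaperone, −0.68, adjusted p = 1.14e-04). *Serpinh1* was at 283 CPM in TCDD replicate 1 and 284 CPM in the vehicle pools, and over all 8 pools it did not pass (adjusted p = 0.0883).

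Among 7 tested substrates and targets of kallikreins, 1 rose and 2 fell, and 1 rose and 1 fell over 8 pools. *Dsg3*, a desmosomal cadherin, rose (log2 fold change 2.22, adjusted p = 8.78e-05), and *F2r*, a thrombin receptor, and *Scnn1b*, a subunit of the epithelial sodium channel, fell (−0.67 and −0.50). *F2r* was at 65.1 CPM in TCDD replicate 1, above the vehicle pools (52.1 to 63.2 CPM), and over all 8 pools it did not pass (log2 fold change −0.41, adjusted p = 0.207). Genes of epidermal differentiation, which include envelope and keratin genes of the skin layers where LEKTI and kallikreins act, rose in 16 of 22 tested cases (12 of 21 over 8 pools), with a median log2 fold change of 1.49. *Sprr2a1* and *Tgm3* among the 16 reached the expression needed for testing through the TCDD pools, so the count and the median lean toward higher values. *Krt1*, a keratin of the upper epidermis, was at 388 CPM in TCDD replicates 2 to 4, 491 CPM in TCDD replicate 1 and 65.0 CPM in the vehicle pools. The summed level of this list was 8087.4 to 9493.3 CPM in TCDD replicates 2 to 4, 8191 CPM in TCDD replicate 1 and 5752 to 6687.1 CPM in the vehicle pools. The 5 kallikreins and *Spink5* were thus lower in the same pools in which most listed genes of epidermal differentiation were higher, and the part of this difference in their values was not tested.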

How the data were processed

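Gene expression was measured by RNA-seq (2 lanes per pool) in 8 pools of UGS epithelium. The authors trimmed the reads, used HISAT2 2.1.0 for alignment to GRCm38.p6 and counted read pairs per gene over exons on the gene's own strand with HTSeq 0.12.4, and the deposited values are these raw counts. Pairs aligning to several places are dropped by that counting, so levels of near-identical genes are uncertain. Lines naming no gene held 17.4% to 20.1% of the pairs of a pool and were left out. The authors' deposited comparison tables hold fold changes and p-values and were not used.

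The lanes of a pool gave a chi-square of 0.99 to 1.04 per gene, close to sampling noise, and were averaged as in the study and counted as 1 sample. Genes were filtered with filterByExpr (minimum count 10, minimum total 15) and scaled by TMM. Over 7 pools the filter asks for about 0.748 CPM in at least 3 pools, the size of the smaller group. Over 8 pools it asks for a similar level in at least 4. The test of TCDD against vehicle was the quasi-likelihood F-test of edgeR 4.0.16 (R 4.3.3, legacy method, robust) over 7 pools, without TCDD replicate 1, and over 8 pools, with Benjamini-Hochberg adjustment over all tested genes at 0.05, and with TREAT against a 1.5-fold change. DESeq2 1.42.0, limma 3.58.1 and other scalings, filters, lanes and pools were alternatives. p-values measure the spread between pools only. CPM per kb used exon lengths and coordinates of GENCODE M21 (GRCm38), in which all 107 IDs were found. Zero or low counts are limited by depth, and a detection floor of 3 counts covers counting error only. The tests were tried on simulated data first.

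The members and gene lists were chosen with earlier results of these data known. Every member that passed the filter is named, with values in each pool for those at an adjusted p of at most 0.05 and for the 3 most abundant of each family, members that did not pass with at least 10 counts in all, and up to 4 genes of another list with the smallest adjusted p. Genes named outside this rule are said to be so, apart from the following. *Ctsc*, *Ctsz*, *Etfb* and *Vsig10l* are named because they complete a count, and *Enpep* is named to describe its list. *Acta2*, *Ahrr*, *Pdgfrb*, *Sprr2a1*, *Tagln*, *Tgm3* and *Tmprss11a* are named because they were tested through 1 group. Promoter matches count a position from the start site as +1.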

Additional observations from a re-analysis of the deposited data

Results flagged for a closer look

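Of 46 groups of 4 pools examined for a pool far from the others, 2 had one, and chance alone marks about 1 group in 20. *Klk14* stood at 0.84 CPM in TCDD replicate 1 and at 0.34 to 0.40 CPM in the other TCDD pools, below the lowest vehicle pool in both cases. *Serpina3j* stood at 14.2 CPM in vehicle replicate 4 and at 9.89 to 10.2 CPM in the other vehicle pools.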

How the results depend on the processing

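*Spink5*, *Klk10* and *Klk14* remained lower and past the threshold under all 31 alternatives, with log2 fold changes of −3.97 to −3.48, −2.63 to −1.97 and −2.50 to −1.89. *Klk4* did so under the 22 in which it could be tested. *Klk13* lost its call only with TREAT over 8 pools. Over 8 pools 1884 genes passed the quasi-likelihood test, and the replicate block gave 2424 calls over 7 pools and 2088 over 8. TREAT gave 573 over 7 pools and 193 over 8. Leaving out 1 pool in turn gave 2250 to 3214 calls over 7 pools and 1281 to 1468 over 8 (without vehicle replicates 1 to 4 in order 1325, 1380, 1282 and 1468, and without TCDD replicates 2 to 4 1353, 1281 and 1284). Same-numbered pools did not deviate together over 7 pools (correlations −0.127 to −0.0577), and over 8 pools the correlations were 0.369, −0.0442, −0.136 and 0.111 for replicates 1 to 4, so the numbers were not taken to pair them, and under the block 5 kallikreins, 1 SPINK gene and 2 SERPINB genes were called over 7 pools. Kallikrein calls numbered 3 over 8 pools, 3 to 4 there and 4 to 5 over 7 pools when 1 pool was left out, and 2 with TREAT over 8 pools. SERPINB calls numbered 2 to 3 and 1 to 2 when a pool was left out, 0 with TREAT over 7 or 8 pools, and 4 with DESeq2, without a filter or with robust estimation off.

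Directions that turned all belonged to genes that did not pass the test. *Serpina3j* moved to 0.0375 without vehicle replicate 4, 0.0059 without TCDD replicate 2 and 0.0035 with lane 4 alone (log2, −0.1865 to 0.0375 when a pool was left out). *Serpinb1a* moved to 0.0448 without vehicle replicate 2, and *Serpinb9* to 0.0443 without vehicle replicate 4 (range −0.082 to 0.0443) and 0.0654 with lane 3 alone. *Spink8* moved to −0.0463 without TCDD replicate 3 (range −0.0463 to 0.2252), to −0.0213 over 8 pools and with TREAT over 8 pools, to −0.0212 with the replicate block over 8 pools, and to −0.1774 to 0.0895 when a pool was left out of the 8 (−0.1235, −0.1146, −0.0107, −0.1774 and −0.024 where negative).

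Differences of mean log2 sums moved with the most abundant member of each family left out, to −1.33 for kallikreins, −2.17 for SPINK genes and −1.67 for the protease to inhibitor ratio, from −1.70, −0.37 and −2.01. Without gene lengths the SPINK difference was −1.43. The ratio difference was −1.33 against SPINK genes alone and −1.58 against SERPINA genes alone. It was −1.95 without *Serpinb5* and −2.20 without *Klk13* and *Klk8*, alternatives chosen after seeing the data, and −2.22 to −1.74 when a pool was left out. Of 107 members, 24 had at least 10 counts in a group and 18 passed the filter, against 41 with at least 3 counts.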

Other observations

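A few members below the level needed for testing had counts in the TCDD pools alone or nearly so, and are named here after their values were seen. *Serpinb1c* had 3, 2 and 4 counts in TCDD replicates 2 to 4, 0 in TCDD replicate 1 and 0 in the 4 vehicle pools. *Spink12* had 2, 5 and 0 counts in TCDD replicates 2 to 4 and 0 in all other pools. *Klk6*, which lies within the cluster among the kallikreins that fell, had 3, 2 and 3 counts in TCDD replicates 2 to 4, 0 in TCDD replicate 1 and 1 count in the vehicle pools. A count of 0 over a group allows up to 3 counts, so these differences are close to the limit of detection.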
